A study of Mus musculus with 8 samples.

Results

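BRG1 regions over lincRNA gene starts are the regions listed for BRG1 against input in Tβ4-primed, injured mouse hearts that lay over the annotated start of a long intergenic non-coding RNA (lincRNA) gene and over no start annotated as protein-coding. A region was a member when it lay on an autosome, was at most 100 kb long, shared at least 1 bp with the window of 500 bp on each side of the transcription start site (TSS) of a lincRNA gene, and shared no base with the same window of any protein-coding gene. Genes and their types were taken from the GENCODE annotation of the mouse build mm9. By this rule 389 of the 524614 regions in the list were members, a share of 0.0741%. They were drawn from 492131 autosomal regions of at most 100 kb and lay over the starts of 344 of 1232 autosomal lincRNA genes.

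LincRNA and protein-coding are here the types that the annotation gives, and some genes that it types as lincRNA are protein-coding genes elsewhere. Of the 1232 lincRNA genes, 715 were matched by symbol or synonym to RefSeq genes of the build GRCm38.p6, and RefSeq types 25 of these as protein-coding. A member lay over 10 of the 25 starts, with 14 members in all, and any region of at most 100 kb touched 12. Of all 1232 lincRNA starts, 344 had a member (27.9%) and 574 were touched by any such region (46.6%). Nlrc5, an activator of MHC class I genes annotated with up to 49 exons, had 2 members, and Tdrd5 and Ttc28 had 1 each. The other 7 of these 10 genes were 1810058I24Rik, 2700016F22Rik, 6430628N08Rik, Gm11818, Gm16867, Gm17524 and Gm2115. A member also lay over the starts of 3 of the 8 genes that RefSeq types as pseudogenes. The same held for 3 of the 10 that it types as transcribed pseudogenes, Abhd1 and Atp10d among these. Members further lay over the starts of Trmt61b and A030009H04Rik (Rnf227), which RefSeq types as non-coding although they carry the names of protein-coding genes. These genes were singled out after their values were seen. With the 25 genes counted as protein-coding, there were 375 members, over 27.7% of lincRNA starts.

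Per the sample labels, hearts came from C57BL/6 mice of 10 to 12 weeks of age. The methods of the study give another, older age range for its infarcted mice. Mice were primed for 1 week by daily intraperitoneal injection of PBS or of 12 mg per kg of Tβ4, given a myocardial infarction (MI) by tying off the left anterior descending artery for good, and injected again on days 0 and 2, and their hearts were taken on day 4. Each treatment gave 2 BRG1 ChIP libraries and 2 input libraries of chromatin that was not immunoprecipitated, 8 libraries in all. The list used here is named as one of BRG1 against input for Tβ4. Its name does not mention MI, which the sample labels give, and the exact call behind a region is unclear. The list of the PBS-primed hearts was not analysed here, so nothing below compares the treatments. The duplicates are not told apart in the list, which gives positions and no count, height, fold or p-value. The depth is unknown, no spread between replicates can be given, and the tissue could not be checked against marker genes. Intervals are 95% Wilson intervals for shares and order-statistic intervals for medians. They cover counting error only and treat starts or regions as independent.

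BRG1 is an ATPase that drives SWI/SNF complexes, which slide or evict nucleosomes and so open or close stretches of chromatin, and it is required for heart development. LincRNAs are spliced, mostly low-abundance transcripts from genes that lie between protein-coding genes. Several of them act on the chromatin of a neighbouring gene, and many start close to the promoter of a developmental transcription factor. Tβ4, thymosin β4, is a small actin-binding peptide used to prime the adult epicardium before injury.

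The starts of 6 lincRNA genes are shown because these genes were named by list or by a cardiac neighbour and because their TSS lay inside a member region. Each sequence runs 5′ to 3′ on the strand of the gene, with 100 bases before the TSS and 100 bases from the TSS onwards, and was read from the mm9 genome. Capitals mark bases in annotated exons of the gene, so that the first capital is the TSS. The sequences are chr8:123606833-123607032 on the minus strand for 1110050K14Rik, which is Fendrr, chr5:112657869-112658068 on the minus strand for Miat, chr15:61869442-61869641 on the plus strand for Pvt1, chr17:12934077-12934276 on the plus strand for Airn, chr14:65206852-65207051 on the plus strand for A930011O12Rik, the host of miR-124a, and chr3:115853297-115853496 on the plus strand for Gm17730, whose closest protein-coding start is that of Vcam1.
1110050K14Rik: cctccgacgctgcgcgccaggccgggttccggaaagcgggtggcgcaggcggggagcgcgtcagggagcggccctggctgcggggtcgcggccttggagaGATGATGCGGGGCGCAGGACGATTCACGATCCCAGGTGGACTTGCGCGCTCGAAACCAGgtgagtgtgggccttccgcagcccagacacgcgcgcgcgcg
Miat: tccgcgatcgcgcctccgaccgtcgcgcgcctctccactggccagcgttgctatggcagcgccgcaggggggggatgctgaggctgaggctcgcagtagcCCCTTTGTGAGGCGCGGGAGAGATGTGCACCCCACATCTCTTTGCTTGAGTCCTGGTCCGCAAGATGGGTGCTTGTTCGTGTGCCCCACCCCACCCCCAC
Pvt1: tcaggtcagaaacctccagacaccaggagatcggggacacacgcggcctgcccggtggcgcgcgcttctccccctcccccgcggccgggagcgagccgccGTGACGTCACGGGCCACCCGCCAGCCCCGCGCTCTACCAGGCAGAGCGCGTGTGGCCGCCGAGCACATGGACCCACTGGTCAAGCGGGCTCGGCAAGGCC
Airn: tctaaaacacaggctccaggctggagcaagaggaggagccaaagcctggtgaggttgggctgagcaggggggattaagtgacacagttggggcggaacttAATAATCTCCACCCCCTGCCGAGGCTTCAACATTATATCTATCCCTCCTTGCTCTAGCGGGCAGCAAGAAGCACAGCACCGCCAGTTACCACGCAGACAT
A930011O12Rik: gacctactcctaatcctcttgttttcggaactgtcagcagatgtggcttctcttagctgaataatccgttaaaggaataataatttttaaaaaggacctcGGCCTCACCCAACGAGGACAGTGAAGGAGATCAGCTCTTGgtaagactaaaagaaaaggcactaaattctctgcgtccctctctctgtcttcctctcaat
Gm17730: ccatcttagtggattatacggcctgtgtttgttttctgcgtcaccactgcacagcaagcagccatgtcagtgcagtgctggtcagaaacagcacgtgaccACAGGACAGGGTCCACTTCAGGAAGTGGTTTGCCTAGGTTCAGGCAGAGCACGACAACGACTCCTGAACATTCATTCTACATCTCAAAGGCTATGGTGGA

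All 200 bases lay inside a member region at 5 of these starts, and 119 of the 200 bases at Miat. The windows at Fendrr and Pvt1 were rich in GC, with 73.0% and 73.5% and 29 and 24 CpG dinucleotides. The window at A930011O12Rik had 43.0% GC and 5 CpG dinucleotides, and those at Airn and Gm17730 also had 5. The first exon ended within the window at Fendrr, after 59 bases, and at A930011O12Rik, after 40 bases.

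BRG1 regions touched lincRNA starts in a share close to that of protein-coding starts and a few percentage points above that of autosomal windows. Of the 1232 lincRNA starts, 344 had a member region (27.9%, 25.5 to 30.5), and 574 were touched by any region of at most 100 kb (46.6%, 43.8 to 49.4). The difference is 230 starts touched only by regions that also lay over a protein-coding start and were left out by the rule. The share for any region was 44.1% for 21418 protein-coding starts (43.4 to 44.8) and 43.5% for all 34653 gene starts. It was 42.1% for consecutive windows of the same length along sequenced autosome and 41.2% for such windows outside annotated genes. The interval for lincRNA starts holds the share of protein-coding starts and lies above that of the windows. With the TSS of every transcript in place of that of the gene, the order turned, with 49.4% of lincRNA and 56.6% of protein-coding genes touched. A gene then had a window at each of its starts and counted as touched when any of them was. The covered share of bases in these windows kept the order, with 28.3% for lincRNA and 25.5% for protein-coding genes. With windows weighted to the GC content of lincRNA starts, the share of windows was 41.0%.

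**Figure D1:**
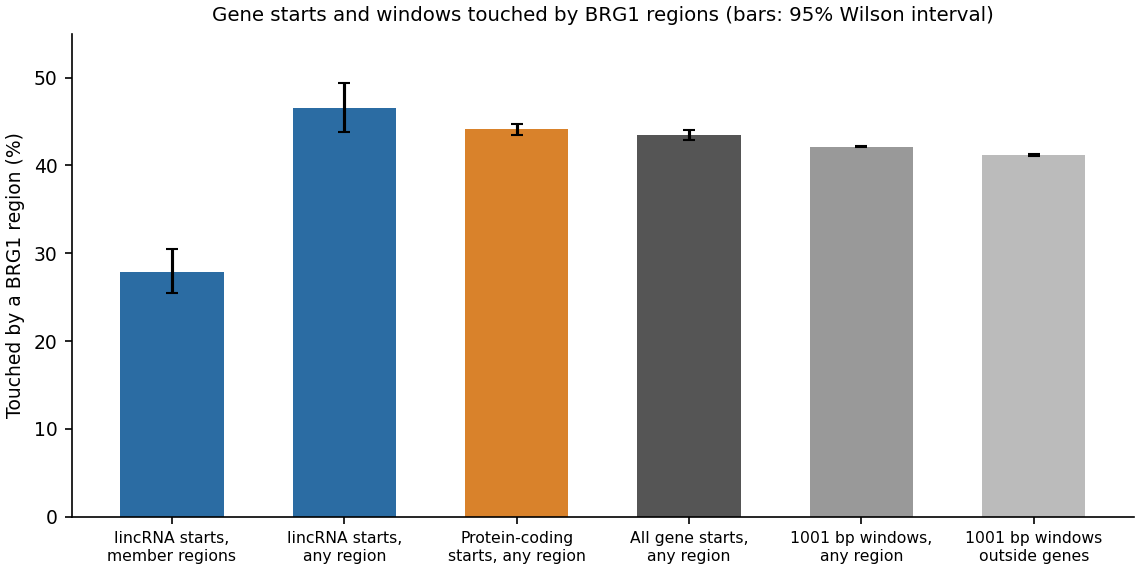
Share of gene starts (500 bp on each side of the TSS) or of consecutive autosomal windows of the same length touched by a BRG1 region, in percent, with 95% Wilson intervals. LincRNA starts touched by any region stand at 46.6% and protein-coding starts at 44.1%, and the lower first bar (27.9%) counts member regions alone.

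LincRNA starts fell into 733 whose window shared no base with a protein-coding window and 499 whose window did. Of the 733 separate starts, 320 were touched by any region (43.7%, 40.1 to 47.3), an interval that holds the shares of protein-coding starts, windows and windows outside genes. A member lay over 300 of them (40.9%, 37.4 to 44.5). Of the 499 starts beside a protein-coding start, 254 were touched (50.9%, 46.5 to 55.3) and 44 had a member (8.82%, 6.63 to 11.6). The touched share was 43.8% beyond 1000 and up to 5000 bp from the closest protein-coding start, 46.0% beyond that and up to 50000 bp, and 39.5% (33.0 to 46.4) farther away. Within 5 kb of a protein-coding start, divergent lincRNA genes were touched in 165 of 336 cases (49.1%) convergent or overlapping genes in 166 of 335 (49.6%), and genes on the same strand in 4 of 13 (30.8%, 12.7 to 57.6).

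The bases around lincRNA starts were covered to an extent close to that of the autosomes. Of the bases within 500 bp of a lincRNA TSS, 26.9% lay inside a region, against 25.2% for protein-coding starts and 26.5% for the windows. At 140 lincRNA starts the whole window was covered (11.4%), against 10.3% of protein-coding starts and 13.4% of the windows. In steps of 100 bp up to 5 kb from the lincRNA TSS, the covered share ranged from 25.7% to 30.4%. The highest value lay 2500 to 2600 bp downstream, and the lowest lay away from the start, from -3300 to -3200 bp. Protein-coding starts had their lowest value, 24.3%, in the 100 bp before the TSS. Around lincRNA starts the mean was 26.9% within 500 bp and 28.0% at 4 to 5 kb, and around protein-coding starts 25.2% and 26.5%. The mean covered share was thus slightly lower within 500 bp than at 4 to 5 kb in both sets, by an amount whose error was not estimated.

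**Figure D2:**
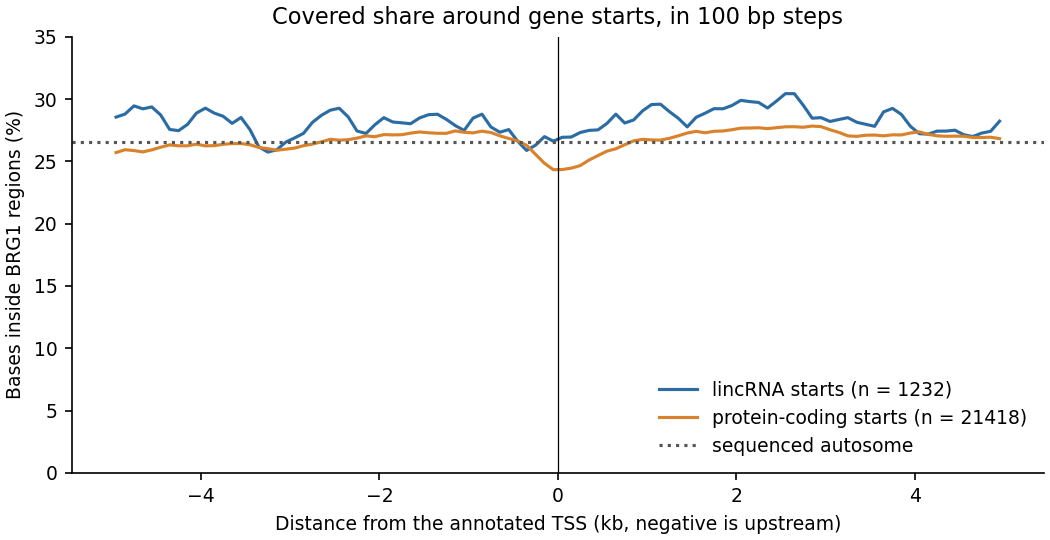
Share of bases inside BRG1 regions (percent) against distance from the annotated TSS (kb, negative is upstream) in 100 bp steps, for 1232 lincRNA and 21418 protein-coding starts, with the autosomal share of 26.5% dotted. The lincRNA line stays between 25.7% and 30.4%, and the protein-coding line falls to 24.3% at the TSS.

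Member regions had a median length of 960 bp (810 to 1170), with quartiles of 420 and 2310 bp and a range of 210 to 17580 bp. Regions over protein-coding starts had a median of 1050 bp (1020 to 1080), and all autosomal regions of at most 100 kb a median of 600 bp. A long region touches a fixed window more easily than a short one. When each region was counted once for every autosomal window that it touched, the median was 1500 bp, which is longer than that of the members. At least 1000 bp was reached by 189 members (48.6%, 43.7 to 53.5), against 51.5% of regions over protein-coding starts, 36.2% of all regions and 60.0% of these pairs of a region and a window. The share of members was thus above that of all regions and below that of the pairs. At least 5000 bp was reached by 29 members (7.46%), against 10.2% of regions over protein-coding starts, 4.22% of all regions and 15.2% of the pairs. At least 10000 bp was reached by 3 members (0.771%), against 1.33%, 0.454% and 2.63%.

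**Figure D3:**
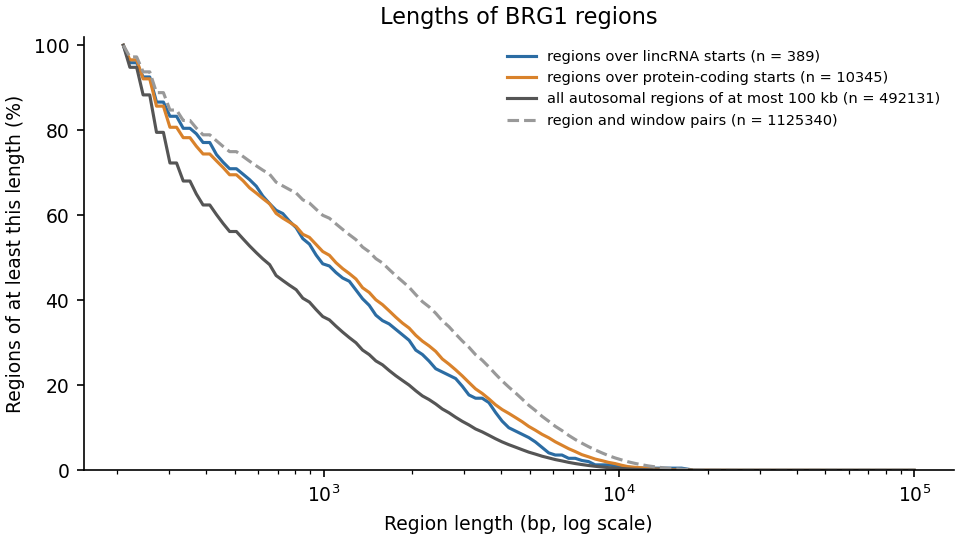
Share of regions (percent) of at least a given length (bp, log scale) for the 389 regions over lincRNA starts, 10345 regions over protein-coding starts and 492131 autosomal regions of at most 100 kb, with the last also counted once for every autosomal window touched (dashed, 1125340 pairs). The lines for lincRNA and protein-coding starts run close together, with medians of 960 and 1050 bp. At 1000, 5000 and 10000 bp both lie above the line for all regions, whose median is 600 bp, and below the dashed line, whose median is 1500 bp, while beyond 10000 bp the lincRNA line rests on 3 regions.

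The longest member, of 17580 bp, lay over the start of Gm17243 at chr4:58180710-58198289 and ran from -10409 to 7170 bp relative to the TSS. The next longest lay at 4931403G20Rik (16650 bp, chr12:70934940-70951589) and 1110046J04Rik (10890 bp, chr13:34022880-34033769). A member of 9750 bp, chr2:71368260-71378009, lay over the start of Dlx1as, an antisense RNA of the homeobox gene Dlx1, and covered all of its window. The member at Gm17710 was 9420 bp long and ended at -301 bp, upstream of the TSS. At the other end, 16 members had the shortest length in the list, 210 bp. The first 5 by position lay at Gm17453, 0610009E02Rik, Gm17608, Gm17612 and 1700121F15Rik, and none of these 5 reached the TSS. Of all 16, 1 lay over the TSS, that at Gm17460.

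Members lay on all sides of the TSS. The TSS itself was inside 186 members (47.8%, 42.9 to 52.8), 99 lay upstream of it (25.4%) and 104 downstream (26.7%). The members over the TSS had a median length of 1875 bp, and those on either side a median of 630 bp. The whole window was spanned by 70 members, and 72 lay wholly within it. The median centre was at -13.5 bp from the TSS, and the median overlap with the window was 366 bp. Of the 344 lincRNA genes, 187 had their TSS inside a member (54.4%, 49.1 to 59.5). A lincRNA gene had 1 member in 300 cases, 2 members in 40 cases and 3 members in 4 cases.

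The rule sets its edge at 500 bp, and the members nearest to it shared few bases with the window. The member at Gm17236 shared 3 bp, and those at Gm17708 and 3010027C24Rik shared 4 bp each. Just outside, the closest regions ended 510 bp from the TSS of Gm11240, 511 bp from that of Gm13817 and 513 bp from that of Gm17451.

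There were 3 members that lay over the starts of 2 lincRNA genes. A member of 3780 bp, chr6:52121910-52125689, lay over Gm15050 and 2700086A05Rik in the HoxA cluster. The others were a member of 1860 bp, chr1:196802850-196804709, over Gm16897 and A330023F24Rik, and a member of 1470 bp, chr13:81102630-81104099, over Gm4211 and 9330111N05Rik. Starts of other gene types were touched by 6 members, of which 3 touched a microRNA gene, 2 a pseudogene and 1 a gene of miscellaneous RNA. A member of 3000 bp on chromosome 12 touched the starts of Mir673 and Gm17639. On chromosome 9, a member of 330 bp touched those of a copy of 7SK and of C920006O11Rik, and ended at -82 bp from the TSS of C920006O11Rik. These genes were named after their values were seen.

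The members covered 696030 bases. Exons of lincRNA genes took 14.5% of these bases and introns of lincRNA genes 33.6%. A further 27.2% lay in protein-coding genes and in no lincRNA gene, 0.943% in other genes alone and 23.7% in no gene. In the 1 to 10 kb around starts with a member, regions other than the members covered a median of 24.3% of the bases (21.8 to 26.5). Around starts without any region the median was 21.3% (19.6 to 23.5), so that the intervals overlapped. Of the starts with a member, 30.5% lay within 5 kb of a protein-coding start, against 53.0% of those without any region. The comparison was not made among separate starts.

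Members had a median GC content of 48.0% (47.3 to 48.6), close to the 48.1% of regions over protein-coding starts and above the 41.8% of all autosomal regions. Their median ratio of observed to expected CpG was 0.278 (0.262 to 0.297), against 0.328 over protein-coding starts and 0.159 in all regions. The windows around all lincRNA starts had a median GC content of 54.3%, and autosomal windows one of 41.8%. The highest GC content was 77.8%, in a member of 270 bp over the TSS of Gm17277, followed by 77.1% at 4930405A21Rik, 72.6% at Gm17242, 71.3% at Gm2115 and 67.2% at Gm12541. The lowest was 28.8%, in a member of 240 bp over the TSS of Gm17659, followed by 30.5% at Gm17460, 31.9% at Gm16386, 32.8% at Gm17517 and 33.1% at Gm6225.

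Base composition was compared between lincRNA starts with a member and those without a region, first over all lincRNA genes and then among the 733 separate starts, because the rule rarely gives a member to a start beside a protein-coding start. Over all lincRNA genes, the median GC content of the window was 51.1% with a member and 53.7% without any region, and the CpG ratio 0.396 and 0.521. Among the 733 separate starts, the 300 with a member had a GC content of 50.4% (49.2 to 51.1) and the 413 without a region 49.9% (48.8 to 51.0). Their CpG ratios were 0.347 (0.314 to 0.394) and 0.331 (0.297 to 0.367). The median gene length was 8042 bp with a member and 7779 bp without, and the median distance to the closest protein-coding start 18646 and 19460 bp. The intervals of each of these pairs among separate starts overlapped. By CpG ratio, the share of lincRNA starts touched by any region was 42.6% (35.1 to 50.5) below 0.2 and 48.2% (44.0 to 52.5) above 0.6. The share with a member was 40.0% and 16.6% in these classes.

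Short motifs were counted on both strands in the 300 bp around the TSS. The C/EBP-type motif TTGCNNAA, chosen because C/EBP factors are known to bring SWI/SNF complexes to DNA, was found at 18 of the 187 starts whose TSS lay inside a member (9.63%, 6.18 to 14.7). It was found at 9.66% of all lincRNA starts and 8.33% of all protein-coding starts. The GATA motif AGATAA was found at 11.2% (7.46 to 16.6), against 8.12% of all lincRNA starts and 8.31% of protein-coding starts. The AP-1 motif TGACTCA was found at 12 starts (6.42%, 3.71 to 10.9), against 3.90% and 3.89%, and the TATA box TATAAA at 21 (11.2%), against 8.85% and 10.8%. The T-box motif AGGTGTGA was found at 2 of the 187 starts (1.07%), against 1.14% and 0.915%. All these intervals hold the shares of lincRNA starts as a whole. Separate starts were also compared, 180 with the TSS inside a member and 413 without a region. There the AP-1 motif was found at 6.67% and 5.08%, the GATA motif at 11.1% and 9.20%, and the TATA box at 11.7% and 11.6%. The C/EBP-type motif was found at 9.44% and 10.9%, and the T-box motif at 1.11% and 1.45%.

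The GC box GGGCGG was found at 24.6% of the starts with the TSS inside a member (18.98 to 31.2), against 42.8% of all lincRNA starts and 46.1% of protein-coding starts. Among separate starts it was found at 44 of 180 with the TSS inside a member (24.4%, 18.7 to 31.2) and at 115 of 413 without a region (27.8%, 23.7 to 32.4), so that the intervals overlapped. In the sequences shown above, the only match to any of these motifs was a GC box at Airn, on the strand of the gene, starting at -11 bp.

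LincRNA genes known by name were described from a list of 90 genes, 38 of which were autosomal lincRNA genes of the annotation. A member lay over 10 of these starts (26.3%, 15.0 to 42.0), near the 27.9% of all lincRNA starts. A region that also lay over a protein-coding start touched 7, and 21 had none. By group, 6 of 18 RNAs of developmental loci and other regulated genes had a member, as did 2 of 11 hosts of small RNAs, 1 of 4 imprinted RNAs and 1 of 5 RNAs of nuclear bodies and splicing.

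Fendrr, which starts divergently from Foxf1a and is required for development of the heart and body wall, had a member of 2910 bp at chr8:123604620-123607529. This region ran from -597 to 2312 bp relative to the TSS and covered the whole window shown above. The start of Foxf1a lay 1354 bp away. Hottip (Gm15053), at the 5′ end of the HoxA cluster beside Hoxa13, had 2 members. The upstream region was 210 bp long, and the downstream region, chr6:52212960-52216229, was 3270 bp long. With other regions, 92.9% of the Hottip gene was covered, where regions covered 26.5% of the bases of autosomal windows. Among the listed genes the covered share of the gene ran from 0%, as at Snhg5, to 100% at Gata6os.

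Pvt1, the RNA gene next to Myc, had 3 short members of 570, 450 and 630 bp. They ran from -992 to -423, from -242 to 207 and from 418 to 1047 bp, so that the TSS lay in the middle one, chr15:61869300-61869749. Its GC content of 65.8% was above the 48.1% and 46.3% of its neighbours. The Pvt1 gene held 51 regions, which covered 18.6% of its bases. Nkx2-2as (Nkx2-2os), beside the homeobox gene Nkx2-2, had 2 members of 870 and 1050 bp with the TSS in the gap between them.

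Miat, a nuclear RNA named for its association with myocardial infarction in people, had a member of 1050 bp at chr5:112657950-112658999. It ran from -1031 to 18 bp and so ended just inside the first exon. Airn, the imprinted RNA that silences Igf2r in cis, had a member of 1920 bp at chr17:12933150-12935069 that covered the whole window. Its start lies inside Igf2r, 28353 bp from the start of that gene. Trp53cor1 (Gm16197), a p53-induced RNA next to Cdkn1a, had a member of 330 bp that ended at -134 bp, and regions covered 49.2% of its gene.

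The microRNA hosts with a member were A930011O12Rik (Mir124a-1hg), host of miR-124a, and AI854517 (Mir9-3hg), host of miR-9-3. At A930011O12Rik the member was 2970 bp long, chr14:65204430-65207399, and ran from -2522 to 447 bp. At AI854517 the member was 5940 bp long and began 397 bp downstream of the TSS. Foxd2os (9130206I24Rik) had a member of 780 bp that began 468 bp downstream of the TSS and so covered 3.30% of the window.

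The 7 known genes touched through a region that also lay over a protein-coding start were Gas5, Tug1, Snhg1, Ptgs2os, Lhx1os, Hoxa11as and Gata6os. At Gas5, a host of small nucleolar RNAs that the list placed with the developmental group, the region was 1890 bp long and covered the whole window, and the start of Zbtb37 lay 427 bp away. The 21 genes without a region included Meg3, listed here among the nuclear RNAs, the imprinted Rian and Mirg, the small nucleolar RNA hosts Snhg4, Snhg5, Snhg7 and Snhg12, and Rmst, Dleu2 and Sox2ot. The closest region was 799 bp from the TSS of Meg3, whose gene was covered to 68.0% by 10 regions. It was 529 bp from the TSS of Mirg and 525 bp from that of Snhg4, just beyond the window. Carmn (Gm16908), a cardiac and smooth muscle lincRNA, had its closest region 3622 bp from the TSS.

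**Figure D4:**
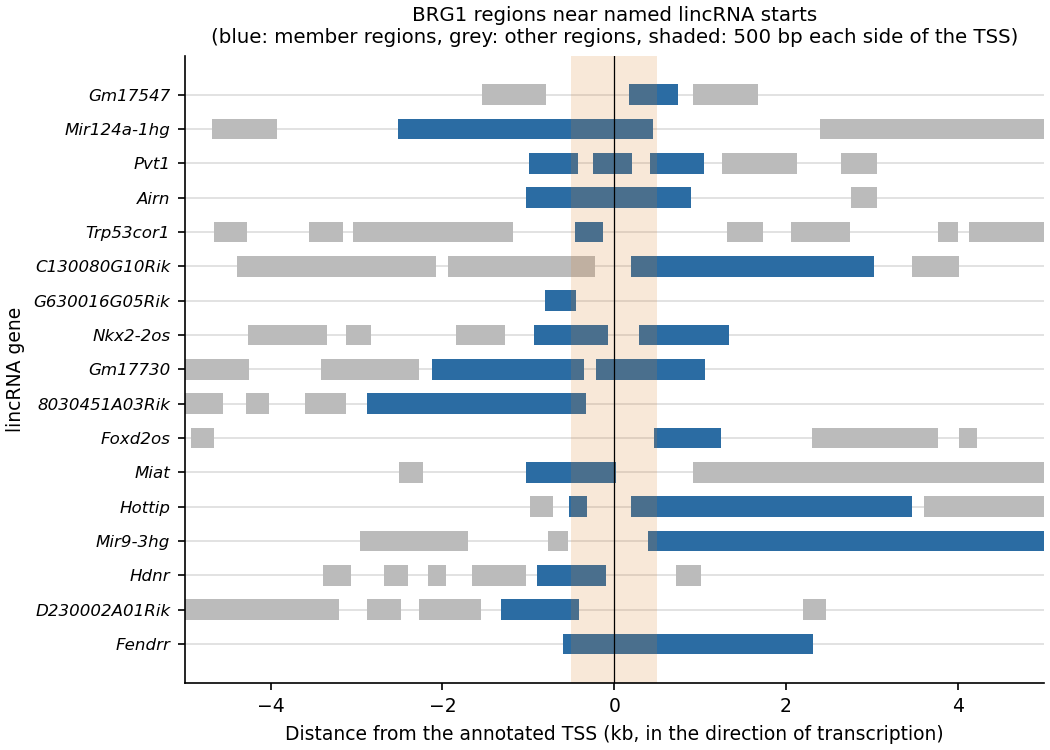
BRG1 regions within 5 kb of the TSS of 17 lincRNA genes named by list or by a cardiac neighbour, all with a member, plotted by distance from the TSS (kb, in the direction of transcription) under their current names. Blue bars are members, grey bars are other regions, and the shaded band is the 500 bp on each side of the TSS. The TSS is inside a member at 6 of the genes, and at the others the members lie beside it.

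LincRNA genes with a neighbour of interest in the heart were taken as those whose closest protein-coding start belonged to a list of 139 genes, which held cardiac transcription factor, contractile, epicardial, vascular, fibrosis and SWI/SNF subunit genes. There were 22, of which 8 had a member (36.4%, 19.7 to 57.0), an interval that holds the 27.9% of all lincRNA starts. Through a region that also lay over a protein-coding start, 2 were touched, and 12 had no region. The closest protein-coding gene was a cardiac transcription factor gene for 13 of the 22, 5 of them with a member. It was the SWI/SNF subunit gene Arid2 for 2, neither of which had a region.

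The 8 with a member stood beside genes of several roles. C130080G10Rik, which starts 787 bp from Actc1, the gene of cardiac α-actin, and divergently from it, had a member of 2820 bp at chr2:113880270-113883089 that began 199 bp downstream of the TSS. Upstream it was also touched by a region of 1710 bp that was no member because it lay over a protein-coding start. Beside the transcription factor genes, 5033428I22Rik, known as handsdown (Hdnr), had a member of 810 bp and lay 11135 bp from the start of Hand2. Gm17547 had a member of 570 bp and lay 226154 bp from the start of Mef2c. G630016G05Rik, 1386 bp from Meis2, and D230002A01Rik, 1239 bp from Irx3, had members of 360 and 900 bp that ended at -442 and -415 bp and so shared only the edge of the window. Fendrr, described above, stood beside Foxf1a.

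Gm17730, 20791 bp from Vcam1, an adhesion molecule gene expressed in the epicardium, had 2 members of 1770 and 1260 bp, the second of which, chr3:115853190-115854449, lay over the TSS. Together they covered 85.0% of its window. 8030451A03Rik, 40872 bp from the start of Tnc, the gene of the matrix protein tenascin C, had a member of 2550 bp that ended at -329 bp. Among the genes without a region was AI314831, which is Wt1os and starts 19 bp from Wt1, the epicardial transcription factor gene. Its closest region was 1378 bp from the TSS, and 12 regions covered 25.5% of the gene.

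By chromosome, the share of lincRNA genes with a member ranged from 11.4% (5 of 44, 4.95 to 24.0) on chromosome 15 to 38.3% (23 of 60, 27.1 to 51.0) on chromosome 17. The interval held the 27.9% of all lincRNA genes on 17 of 19 chromosomes. The exceptions were chromosome 15 and chromosome 2 (21 of 113, 18.6%, 12.5 to 26.7), both below it. The share touched by any region ranged from 31.4% (16 of 51, 20.3 to 45.0) on chromosome 10 to 61.1% (44 of 72, 49.6 to 71.5) on chromosome 6, and its interval held the 46.6% of all lincRNA genes on 16 of 19 chromosomes. The exceptions were chromosome 10, below it, and chromosomes 6 and 7 (50 of 83, 60.2%, 49.5 to 70.1), above it. On chromosomes 15 and 2 this share was 34.1% and 40.7%. Of the autosomal windows, between 41.4% and 42.7% were touched on each chromosome. No test between chromosomes was made.

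**Figure D5:**
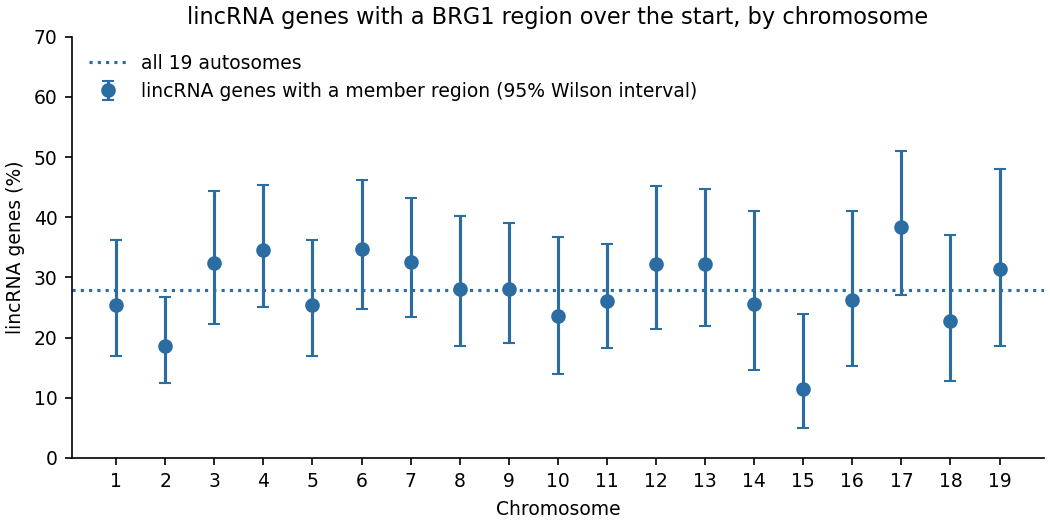
Share of lincRNA genes with a member region (percent) on each of 19 autosomes, with 95% Wilson intervals and the share over all autosomes, 27.9%, dotted. The points run from 11.4% on chromosome 15 to 38.3% on chromosome 17, and the intervals of chromosomes 2 and 15 lie below the dotted line.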

How the data were processed

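The authors sequenced BRG1 ChIP and input chromatin after PBS or Tβ4 priming and MI, with 2 libraries of each kind. Whether a library came from 1 heart or several is not given in the sources used here. Per the methods and the labels, reads were mapped to mm9 with Bowtie (version 1.0.0) and enriched regions were called with MACS2 (version 2.0.10). The methods name a function of MACS2 for comparing signal with input, while the list is named like the result of a comparison of conditions, so what a region was called against is not certain. How the duplicates were combined is not given in the sources used here. The deposited list of the Tβ4-primed hearts holds the start and end of each region in bp, and no count, score, fold or p-value, so its depth is unknown and no stricter threshold could be set.

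Positions were counted from 1. Regions did not overlap and lay within the chromosomes of mm9, and 4 of more than 100 kb were left out. The TSS was the 5′ end of the gene in GENCODE. Python 3.11.15, numpy 2.4.6, pandas 2.3.3 and scipy 1.17.1 were used. Overlap counts were tested on simulated regions and equalled those of bedtools 2.31.1 at 22650 of 22650 gene starts. Current gene names and RefSeq gene types came from a RefSeq table of assembly GRCm38.p6 by symbol or synonym (715 of 1232 lincRNA genes matched). Background windows were consecutive, as long as the start windows and free of unsequenced bases.

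Genes were named by rule, except those said to be named or singled out after their values were seen: listed lincRNAs, lincRNAs whose closest protein-coding start is in the cardiac list, the 5 longest and shortest members, members over 2 or more lincRNA starts, the 5 highest and lowest in GC content, and the 3 on each side of the rule's edge. The members and the lists were chosen with earlier results of these data known. The comparison of starts separate from protein-coding starts and the recount with RefSeq gene types were chosen after seeing the data. Repeat content was to be given beside GC content but was not computed, because the genome sequence used here does not mark repeats. No test was made, since 1 list gives no replicates.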

Additional observations from a re-analysis of the deposited data

How the results depend on the processing

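Of 66 recomputed values, 7 could not move: the 6 with only lincRNA genes of 2 or more exons, since all had them, and the covered share of bases without the exclusion by protein-coding starts, which does not enter it. Of the other 59, 43 moved by less than their counting interval or, for the number of members, by less than 1.5 times. These included the covered share under the 9 alternatives that bear on it, and all 6 values with the 25 genes that RefSeq types as protein-coding counted as such, an alternative chosen after seeing the data. For the covered share, the interval (24.5 to 29.4) was computed as for a share of 1232 starts. It does not measure the error of a mean covered share, so it is only a yardstick here. Joining regions within 500 bp raised the covered share from 26.9% to 29.2%.

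The window set the number, share and length of the members. With 250 bp on each side the share of lincRNA starts with a member was 22.9% and the median length 1230 bp. With 1000 bp they were 33.2% and 780 bp, and the median GC content was 47.3%. With the TSS base alone there were 223 members at 18.2% of starts, of 1710 bp and 48.7% GC. Joining regions within 500 bp raised the median length to 2160 bp. Without the exclusion by protein-coding starts there were 661 members at 46.6% of starts, with 48.9% GC, and 58.4% of these starts lay within 5 kb of a protein-coding start, against 30.5%. When lincRNA genes within 5 kb of a protein-coding start were left out, the share was 43.6%, and the share within 5 kb has no value. Over the 733 separate starts, also chosen after seeing the data, it was 40.9%.

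The order of lincRNA and protein-coding starts in the share touched by any region turned under 3 alternatives. With the TSS of every transcript the shares were 49.4% and 56.6%, where a gene with more starts had more windows that could be touched. The covered share of bases in these windows was 28.3% and 25.5%. Without lincRNA genes within 5 kb of protein-coding starts they were 43.6% (39.5 to 47.8) and 44.1%. Over the 733 separate starts they were 43.7% (40.1 to 47.3) and 44.1%, and both of these intervals hold 44.1%. The cause was not tested.

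No paired analysis was possible because the list does not tell the duplicates apart, and no replicate was left out for the same reason. Without read counts, a start without a region and a start with too few reads cannot be told apart.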
